A study of Mus musculus with 30 samples.

Results

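A set of 10 genes of the actomyosin apparatus was followed in the mouse hypothalamic cell line mHypoA-2/12 after treatment with cannabidiol (CBD), to ask whether a higher level of the myosin light chain kinase gene *Mylk* was shared by other contractile genes. The 10 genes, of 56941 Ensembl genes counted, were taken by symbol: *Mylk*, *Myl9*, *Myh9*, *Acta2*, *Tagln*, *Cnn1*, *Cnn2*, *Tpm1*, *Tpm2* and *Actn1*. The set was chosen by the level of *Mylk*, already known to be higher in the CBD-treated libraries of 24 h, so that its values against vehicle at 24 h are a description and carry no test. The line comes from the hypothalamus of adult mice, is immortalized and is a single cell line. Cells received the DMSO vehicle alone or CBD in DMSO, at 0.325 or 0.75 µM or at the higher doses of 1.5 or 3 µM. They were harvested after 6 h or 24 h, and each of the 10 groups holds 3 libraries. Cells of all groups were grown with fetal bovine serum before treatment, and the medium described for the treatment names none. RNA was read from the 3′ end of polyadenylated transcripts (QuantSeq 3′ mRNA-Seq), 1 fragment per transcript. Levels are therefore given as TMM-normalised CPM, the reads of a gene scaled to the size of its library, which need no division by transcript length. In whole cultures, fewer cells that express a gene and less RNA of it per cell cannot be told apart.

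Contraction of non-muscle and smooth muscle cells is driven by myosin II, whose heads pull on actin filaments. Myosin light chain kinase, activated by calcium and calmodulin, phosphorylates the regulatory light chain of myosin and so switches the motor on, while myosin phosphatase removes the phosphate again. Many genes of this apparatus are known targets of serum response factor (SRF), which binds a short element called the CArG box and works with the actin-sensing coactivators *Mrtfa* and *Mrtfb*. In the brain these genes are best known from the smooth muscle and pericytes of vessels, and non-muscle myosin and actin also shape growing neurites.

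Between 1839621 and 4420675 reads per library were assigned to genes. A count of 3 reads in 1 library corresponded to between 0.679 and 1.63 CPM, depending on the library. All 10 genes passed the filter on low counts at both times, with between 1874 reads for *Cnn1* and 228902 reads for *Myh9* over the 30 libraries. No source used here says that replicates were separate cultures, so that p-values measure the spread between these libraries alone. At 24 h, 21.4% of uniquely mapped reads lay outside genes in vehicle and at 3 µM, against 19.4% to 19.7% at the other doses. The label of the line was checked against cell type markers. Of the neuronal markers, *Tubb3* (mean 49.1 CPM), *Map2*, *Nefl* and *Stmn2* were read in every library, whereas *Snap25* had 4 reads, *Npy* 1 read and *Rbfox3* 47 reads in all 30 libraries together. The summed level of 9 neuronal markers was 83.5 to 125 CPM per library, and that of 7 mesenchymal markers, such as *Col1a1* and *Vim*, was 6324 to 8299 CPM. The summed level of 6 smooth muscle markers was 72.1 to 139 CPM per library. Of these, *Smtn* (mean 48.4 CPM), *Actg2* (25.1 CPM), *Lmod1* (16.4 CPM) and *Des* (4.16 CPM) were read in every library. *Myh11*, the smooth muscle myosin heavy chain, had 79 reads and its activator *Myocd* 1 read over all libraries. Of 5 astrocyte markers, summed to 15.8 to 50.4 CPM per library, *Slc1a2* was at a mean of 18.8 CPM, while *Gfap* had 2 reads and *Aqp4* had none.

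The genes differed widely in level among themselves. Over all 30 libraries *Myh9* was between 2168 and 3627 CPM and *Acta2* between 990.1 and 3121 CPM. *Tpm1* (600.1 to 1122 CPM), *Actn1* (497.8 to 869 CPM), *Tpm2* (469 to 768 CPM), *Myl9* (189 to 657 CPM) and *Cnn2* (289 to 441 CPM) lay in the middle. *Mylk* ranged from 44.8 to 422 CPM, the widest relative range of the 10. *Tagln* (12.9 to 82.4 CPM) and *Cnn1* (10.9 to 38.7 CPM) were the lowest, and their values rest on as few as 32 and 27 reads in a library.

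The promoter of *Mylk* is shown because the gene had the largest fold difference with CBD at 24 h among the 10. The 2 short windows below hold the only matches to a strict CArG consensus found among the promoters of these genes. Sequences are from RefSeq on GRCm38.p6 and are written 5′ to 3′ on the strand of the gene, with the CArG box in capitals. The box was searched by this strict consensus, with only A or T between CC and GG, on both strands in the 250 bases before each gene start. This was done for the 9 of the 10 genes with an entry. *Tagln* had no entry.
Mylk, chr16:34784700-34784919, forward strand: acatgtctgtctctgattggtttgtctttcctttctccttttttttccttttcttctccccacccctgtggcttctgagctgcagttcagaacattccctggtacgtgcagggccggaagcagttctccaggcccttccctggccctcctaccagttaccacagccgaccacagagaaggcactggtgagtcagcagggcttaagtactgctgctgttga
Myl9, chr2:156775273-156775342, forward strand: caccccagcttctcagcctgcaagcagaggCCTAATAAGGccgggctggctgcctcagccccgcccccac
Cnn2, chr10:79988514-79988583, forward strand: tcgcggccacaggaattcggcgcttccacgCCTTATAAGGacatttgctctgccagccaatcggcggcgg
The box of *Myl9* lay from −161 to −152 and that of *Cnn2* from −56 to −47, counted from the RefSeq start of the gene, which differs from that of GENCODE. Of the 32851 promoters searched, which did not cover every chromosome, 482 (1.47%) held such a CArG box in this window. The same held for 8 of the 54 promoters found for the wider list of contractile genes described further on. A match is a match of letters only. The search says nothing of sites outside these windows or of boxes that depart from the strict consensus.

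*Mylk* (ENSMUSG00000022836) lies on chromosome 16 of GRCm38, from 34745210 to 35002420 on the forward strand. All positions here come from GENCODE M21 on GRCm38, whereas the reads were aligned to GRCm39. Its annotation holds a long coding transcript from 34784921 to 35002420 and a short coding transcript from 34994807 to 35001363, within the 3′ part of the long one. Reads were summed per gene, so the counts do not separate the kinase from the short product. The gene also overlaps 3 annotated genes of the opposite strand, and the strand setting of the counting is not given in the sources used here.

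At 24 h *Mylk* was higher in every CBD-treated library than in every vehicle library. The vehicle libraries were at 223, 234 and 239 CPM. The libraries of 0.325 µM were at 363, 303 and 292 CPM and those of 0.75 µM at 408, 419 and 422 CPM. The libraries of 1.5 µM were at 313, 317 and 291 CPM and those of 3 µM at 290, 323 and 324 CPM. The 12 CBD-treated libraries did not overlap with vehicle, and the 3 libraries of 0.75 µM lay above all 9 of the other doses, which 0.594% of all genes did.
Over the 4 doses together, the mean was 1.46 times that of vehicle, a log2 fold change of 0.53 ± 0.09 (SE, 95% confidence interval 0.35 to 0.71). The estimate was highest for 0.75 µM (0.83 ± 0.11) and alike for 0.325 µM (0.45 ± 0.11), 1.5 µM (0.40 ± 0.11) and 3 µM (0.44 ± 0.11). The 4 comparisons share the 3 vehicle libraries. Of all 12790 genes tested with the 30 libraries, 0.328% had all CBD-treated libraries of 24 h above all vehicle libraries, which is the pattern by which *Mylk* was chosen.

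**Figure D1:**
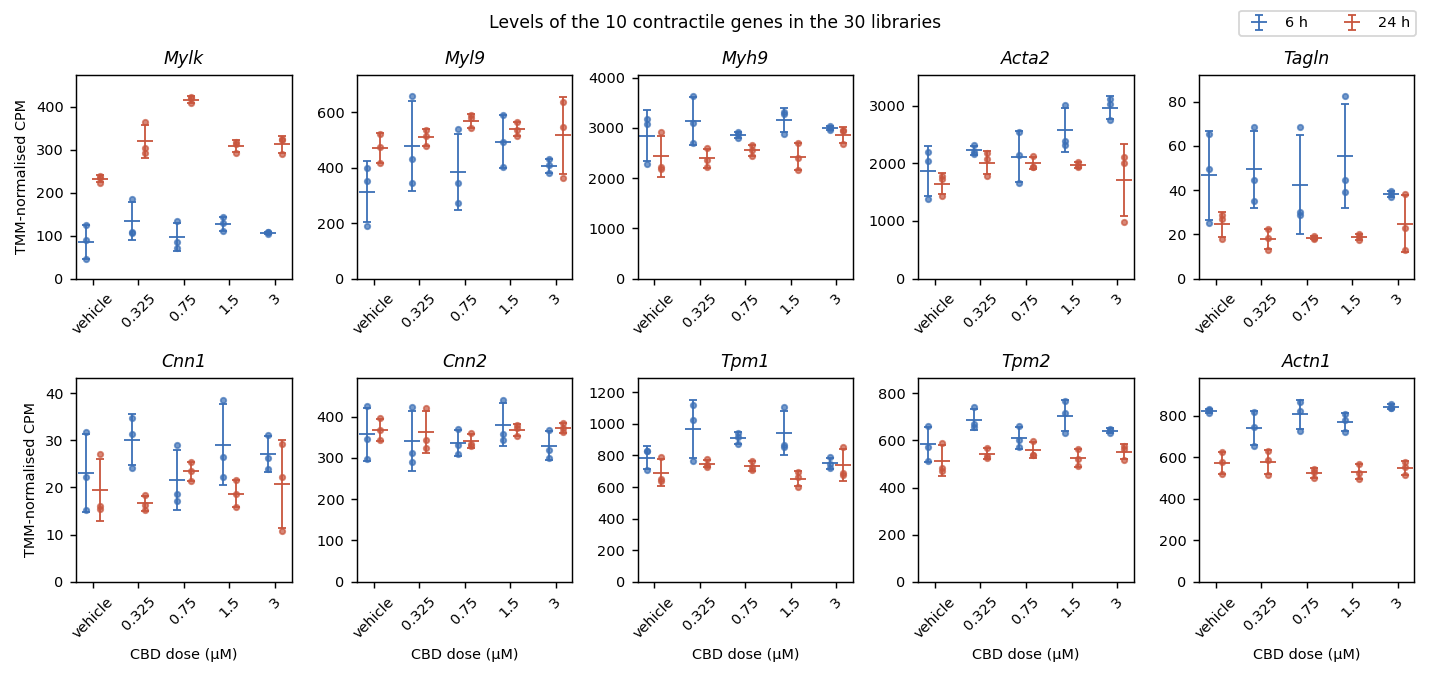
Levels of the 10 genes in TMM-normalised CPM (linear axes from 0) against the CBD dose in µM, with 6 h in blue and 24 h in red. Points are single libraries, and the horizontal bars with whiskers are the mean ± SD of 3 libraries. *Mylk* at 24 h is the gene whose CBD-treated libraries (290 to 422 CPM) all lie above vehicle (223 to 239 CPM), the pattern by which it was chosen. Its 3 libraries at 0.75 µM lie above all others.

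The dose dependence of *Mylk* at 24 h was tested among the CBD-treated libraries without using vehicle. The test of any difference among the 4 doses gave a false discovery rate (FDR, the Benjamini-Hochberg adjusted p) of 0.0836 with edgeR's quasi-likelihood test, and 0.00573 in DESeq2. These are the same libraries whose rise against vehicle was already known. In the same test 234 of 12118 genes (1.93%) passed the threshold of 0.1 in edgeR and 526 in DESeq2. Of the 10 contractile genes *Mylk* alone did. Of the 54 genes tested from the wider lists described further on, 4 passed in edgeR and 9 in DESeq2. The call of *Mylk* was lost when any of 9 of the 12 libraries was left out (FDR from 0.026 to 0.229 over the 12 omissions). It was also lost when a covariate for reads outside genes was added. No trend with dose was detected: the slope over log2 dose was −0.04 ± 0.03 per doubling (edgeR FDR = 0.571). Of the 10 genes 0 passed in edgeR or DESeq2, where 3.13% of all genes passed in edgeR. None of the 10 had an unadjusted p below 0.05, where 16.5% of all genes did.

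At 6 h the level of *Mylk* was lower than at 24 h in every group, and the groups overlapped. The vehicle libraries were at 124, 88.7 and 44.8 CPM. The 12 CBD-treated libraries ranged from 71 to 186 CPM, with a median of 108.9 CPM. Of these, 4 lay above the highest vehicle library and 8 within the vehicle range. The log2 fold change of the 4 doses together was 0.45 ± 0.22 (SE, 95% confidence interval 0.00 to 0.90, edgeR FDR = 0.483), and it fell to 0.11 ± 0.19 without vehicle replicate 3. That library had the lowest *Mylk* of all 30 and the largest number of reads of the vehicle group at 6 h. The change with CBD at 24 h exceeded that at 6 h by 0.08 ± 0.24 (95% confidence interval −0.41 to 0.56), an interval that includes 0. That value contains the 24 h contrast and is a description.

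*Myl9* (ENSMUSG00000067818, chromosome 2, 156775420 to 156781658) encodes the regulatory light chain that the kinase phosphorylates. At 24 h the vehicle libraries were at 415, 523 and 476 CPM. The CBD-treated libraries ranged from 362 to 637 CPM with a median of 539 CPM, and 8 of the 12 lay above the highest vehicle library, while 1 lay below the lowest. Over the doses the log2 fold change of *Myl9* was 0.17 ± 0.11 (95% confidence interval −0.05 to 0.40, edgeR FDR = 0.864), with the highest value, 0.26 ± 0.14, at 0.75 µM. Without vehicle replicate 1 of 24 h it was 0.09 ± 0.13 (edgeR FDR = 0.928). At 6 h the vehicle libraries were at 397, 352 and 189 CPM, and the CBD-treated libraries at 273 to 657 CPM with a median of 419 CPM. At this time it differed by 0.49 ± 0.20 (95% confidence interval 0.08 to 0.90), with an unadjusted p of 0.0206 and an edgeR FDR of 0.365. It was 0.23 ± 0.18 without vehicle replicate 3, in which *Myl9* too was lowest.

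*Myh9* (ENSMUSG00000022443, chromosome 15, 77760587 to 77842175), the heavy chain of non-muscle myosin IIA, was the most abundant of the 10. At 24 h the vehicle libraries were at 2190, 2910 and 2217 CPM, and the CBD-treated libraries ranged from 2168 to 2951 CPM with a median of 2572 CPM. Its log2 fold change over the doses was 0.06 ± 0.09 (95% confidence interval −0.13 to 0.24, edgeR FDR = 0.962). The 3 libraries of 3 µM were at 2951, 2676 and 2935 CPM, and against the 3 lower doses *Myh9* was higher by 0.24 ± 0.09 on the log2 scale (edgeR FDR = 0.128). That value passed the threshold when replicate 2 of 3 µM (FDR = 0.0853) or replicate 3 of 0.325 µM (FDR = 0.0948) was left out. At 6 h it differed from vehicle by 0.09 ± 0.10 (edgeR FDR = 0.841).

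*Acta2* (ENSMUSG00000035783, chromosome 19, 34241090 to 34255590) encodes smooth muscle α-actin, which is also made by myofibroblasts and pericytes. At 24 h the vehicle libraries were at 1774, 1737 and 1440 CPM. Of the CBD-treated libraries, 11 of 12 lay above the highest of these, with a median of 1980 CPM and a maximum of 2182 CPM, and replicate 1 of 3 µM lay below all vehicle libraries at 990.1 CPM. Over the doses it differed from vehicle by a log2 fold change of 0.21 ± 0.13 (95% confidence interval −0.06 to 0.48, edgeR FDR = 0.847), and without that library it was 0.28 ± 0.08 (edgeR FDR = 0.189). Without vehicle replicate 3 of 24 h it was 0.13 ± 0.16 (edgeR FDR = 0.989). At 6 h the vehicle libraries were at 2038, 2207 and 1382 CPM, and the libraries of 3 µM at 3121, 3042 and 2750 CPM. The log2 fold change at 3 µM was 0.66 ± 0.16 (95% confidence interval 0.34 to 0.99). Its FDR was 0.132 in edgeR and 0.0396 in DESeq2, so that the call depended on the tool. Over the 4 doses at 6 h the log2 fold change was 0.38 ± 0.13 (edgeR FDR = 0.248), and 0.21 ± 0.12 without vehicle replicate 3. Among the doses of 6 h the slope was 0.14 ± 0.05 per doubling, with an unadjusted p of 0.00602 and an edgeR FDR of 0.996. In that test 0 of 12012 genes (0%) passed the threshold in edgeR or in DESeq2, and 514 had an unadjusted p below 0.05.

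The thin-filament proteins had no call against vehicle at either time. *Tagln* (ENSMUSG00000032085, chromosome 9, 45929619 to 45936058, reverse strand) encodes transgelin, an actin-bundling protein, and overlaps *Pcsk7* on the other strand. Its vehicle libraries of 24 h were at 17.8, 28.7 and 26.8 CPM, and its CBD-treated libraries at 12.9 to 38.4 CPM with a median of 18.5 CPM. The log2 fold change of *Tagln* was −0.30 ± 0.21 (95% confidence interval −0.74 to 0.13, edgeR FDR = 0.883), opposite in sign to that of *Mylk*. *Cnn1* (ENSMUSG00000001349, chromosome 9, 22099216 to 22109630) encodes smooth muscle calponin. Its vehicle libraries of 24 h were at 16, 27.1 and 15.4 CPM and its CBD-treated libraries at 10.9 to 29.2 CPM, 9 of 12 within the vehicle range, with a log2 fold change of 0.01 ± 0.21 at 24 h and 0.25 ± 0.23 at 6 h. *Cnn2* (ENSMUSG00000004665, chromosome 10, 79988584 to 79996062), a calponin of non-muscle cells, was at 367, 342 and 396 CPM in vehicle at 24 h and at 325 to 421 CPM in CBD-treated cells. Its log2 fold change was −0.03 ± 0.09 at 24 h and −0.04 ± 0.12 at 6 h. The tropomyosins, which wind along the actin filament, differed by 0.05 ± 0.09 (*Tpm1*, ENSMUSG00000032366, chromosome 9, 67022590 to 67049406) and 0.08 ± 0.09 (*Tpm2*, ENSMUSG00000028464, chromosome 4, 43514711 to 43523765) at 24 h. In 10 of 12 (*Tpm1*) and 11 of 12 (*Tpm2*) CBD-treated libraries of 24 h they lay within the vehicle range, which was 637 to 788 CPM for *Tpm1* and 469 to 589 CPM for *Tpm2*. At 6 h they differed by 0.17 ± 0.11 (edgeR FDR = 0.654) and 0.18 ± 0.10 (edgeR FDR = 0.575). *Tpm1* has 16 coding transcripts with 12 different 3′ ends in the annotation, and the counts are a sum over them. *Actn1* (ENSMUSG00000015143, chromosome 12, 80167547 to 80260371), the α-actinin that cross-links actin at stress fibres and adhesions, was at 626, 579 and 520 CPM in vehicle at 24 h and at 498 to 630 CPM in CBD-treated cells, with a log2 fold change of −0.08 ± 0.09. At 6 h the log2 fold change of *Actn1* was −0.06 ± 0.09.

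**Figure D2:**
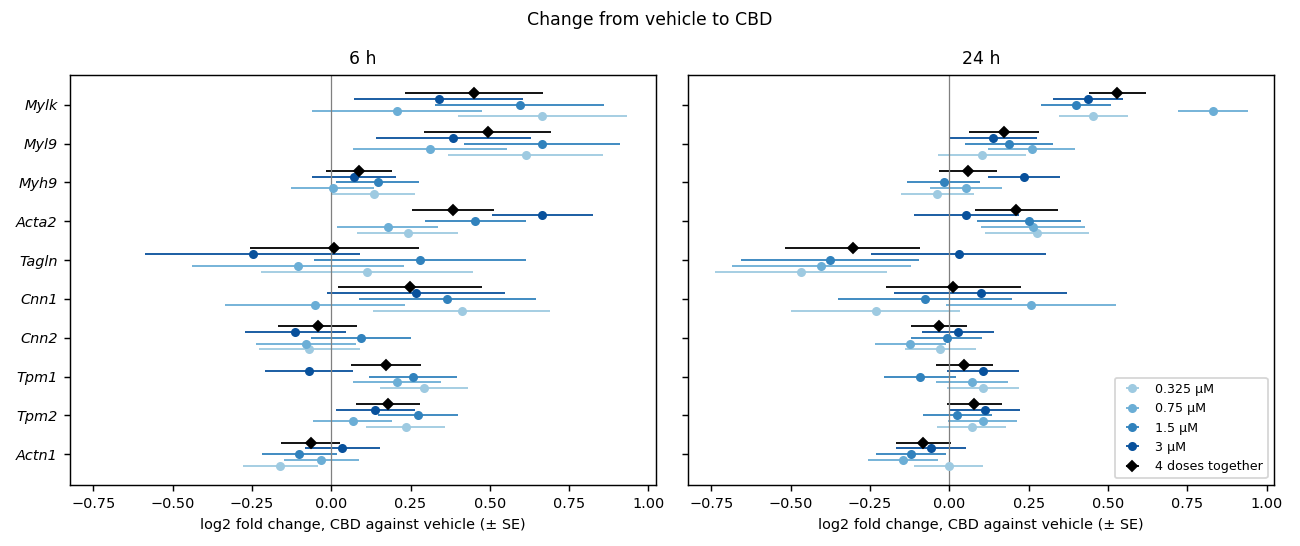
Log2 fold change of CBD against vehicle for the 10 genes at 6 h (left) and 24 h (right), with the 4 doses in shades of blue and the 4 doses together in black. Points are estimates of edgeR and horizontal lines are ± 1 SE. At 24 h *Mylk*, the gene chosen by this contrast, has the highest estimate (0.53 for the doses together). Those of the other 9 genes lie between −0.30 and 0.21.

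For the other 9 genes together, the log2 fold changes of the 4 doses against vehicle at 24 h ranged from −0.30 to 0.21 with a median of 0.05, 6 positive and 3 negative, and 0 of the 9 passed the threshold. None had an unadjusted p below 0.05, and DESeq2 called 0 as well. Their 95% confidence intervals together ran from −0.74 to 0.48, and those of *Acta2*, *Cnn1* and *Myl9* had upper limits of 0.48, 0.45 and 0.40. The interval of *Mylk* (0.35 to 0.71) comes from the contrast by which it was chosen. Its overlap with these 3 is a description, and a difference between the genes was not tested. Of all 12118 genes tested, 0.107% passed in this contrast (13 genes, 815 with an unadjusted p below 0.05), and the median log2 fold change was −0.01. With so few genes called in all, the count of the 9 genes says little about them. By dose at 24 h, 0 of the 9 passed at 0.325 µM (background 0.066%), 0.75 µM (0.0825%), 1.5 µM (0.0413%) and 3 µM (0.00825%) in edgeR, with 0 calls by DESeq2. Only *Myh9* at 3 µM had an unadjusted p below 0.05, where 9.16% of all genes did. The log2 fold changes of the 9 at single doses ran from −0.47 (*Tagln*) to 0.28 (*Acta2*), both at 0.325 µM. At 6 h 0 of all 10 genes passed for the doses together, where 0.749% of 12012 genes did. An unadjusted p below 0.05 was found for 3 of the 10, namely *Mylk*, *Myl9* and *Acta2*, and for 10.3% of all genes. No gene of the 10 had all CBD-treated libraries of 6 h on 1 side of vehicle, a pattern seen in 0.719% of all genes for the higher side and 0.704% for the lower. DESeq2 called 1 of the 10 in the single-dose contrasts of 6 h (*Acta2* at 3 µM), against 48 genes in all at that dose. The background of edgeR at 6 h was 0.2%, 0.0749%, 0.0999% and 0.05% of genes for the doses in rising order, with 0 of the 10 called at each. In the same order 3, 0, 4 and 1 of the 10 had an unadjusted p below 0.05, against 8.8%, 7.8%, 7.91% and 7.26% of all genes. A differing change with CBD at 24 h and 6 h was called for 0 of the 9 other genes by edgeR and by DESeq2, where edgeR called 0.235% of all genes. None of the 9 had an unadjusted p below 0.05, where 6.52% of all genes did. The median difference of the 9 was −0.12.

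For *Mylk*, *Actn1* and *Tagln*, larger fold changes than those with CBD lay between 6 h and 24 h. In vehicle, *Mylk* had a mean of 85.8 CPM at 6 h and 232 CPM at 24 h (log2 fold change 1.47 ± 0.22, a description because it shares the 24 h vehicle libraries with the contrast that chose the gene). In CBD-treated cells the mean at 24 h was 2.92 times that at 6 h (log2 fold change 1.55 ± 0.11), and all 12 libraries of 24 h lay above all 12 of 6 h. Of all genes, 2.12% showed this pattern upwards and 0.977% downwards.
*Actn1* went the other way. It was at 829, 812 and 832 CPM in vehicle at 6 h and at 626, 579 and 520 CPM at 24 h, with no overlap, as 15.9% of all genes did in this direction. Its log2 fold change was −0.52 ± 0.11 in vehicle (edgeR FDR = 0.000862) and −0.54 ± 0.06 in CBD-treated cells (edgeR FDR = 5.13e-10), again with no overlap between the 12 and 12 libraries.
*Tagln* was at 65.3, 49.4 and 25.1 CPM in vehicle at 6 h and fell by 0.90 ± 0.33 on the log2 scale (edgeR FDR = 0.0502), but the groups overlapped and the call was lost without replicate 1 or 2 of 6 h or replicate 1 of 24 h (FDR of 0.291, 0.127 and 0.229). Without replicate 1 of 6 h the log2 fold change of *Tagln* was −0.56 ± 0.36. In CBD-treated cells the log2 fold change of *Tagln* was −1.22 ± 0.17 (edgeR FDR = 2.9e-07).
*Myl9* rose with time and did not overlap in vehicle (15.9% of all genes in the upward direction), by 0.60 ± 0.22 in vehicle (edgeR FDR = 0.0462) and 0.28 ± 0.11 in CBD-treated cells (edgeR FDR = 0.0309). The value in vehicle was 0.34 ± 0.21 (edgeR FDR = 0.30) without vehicle replicate 3 of 6 h, and the call was also lost without replicate 2 of 24 h (FDR = 0.126).

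In CBD-treated cells *Cnn1* (−0.45 ± 0.14), *Acta2* (−0.35 ± 0.09), *Tpm1* (−0.31 ± 0.06), *Tpm2* (−0.28 ± 0.06) and *Myh9* (−0.25 ± 0.06) were also lower at 24 h, with edgeR FDRs from 0.000123 (*Tpm2*) to 0.00941 (*Cnn1*). *Cnn2* was the exception, with a log2 fold change of 0.06 ± 0.07 (edgeR FDR = 0.493). Apart from *Mylk*, 8 of the 9 genes thus passed the threshold in CBD-treated cells, 1 upwards and 7 downwards, where 53.6% of all 12790 genes passed, 26% upwards and 27.6% downwards. In vehicle 3 of the 9 passed, 1 upwards and 2 downwards, where 26.7% of all genes did (12.5% upwards and 14.2% downwards). The number in CBD-treated cells rests on 12 against 12 libraries and that in vehicle on 3 against 3. The values of *Cnn2* in vehicle (0.05 ± 0.14) and of *Myh9* (−0.22 ± 0.13), *Acta2* (−0.18 ± 0.18), *Cnn1* (−0.21 ± 0.29), *Tpm1* (−0.19 ± 0.13) and *Tpm2* (−0.18 ± 0.11) did not pass. Time in culture, harvest and any processing done per time cannot be told apart, since no source used here gives a batch.

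**Figure D3:**
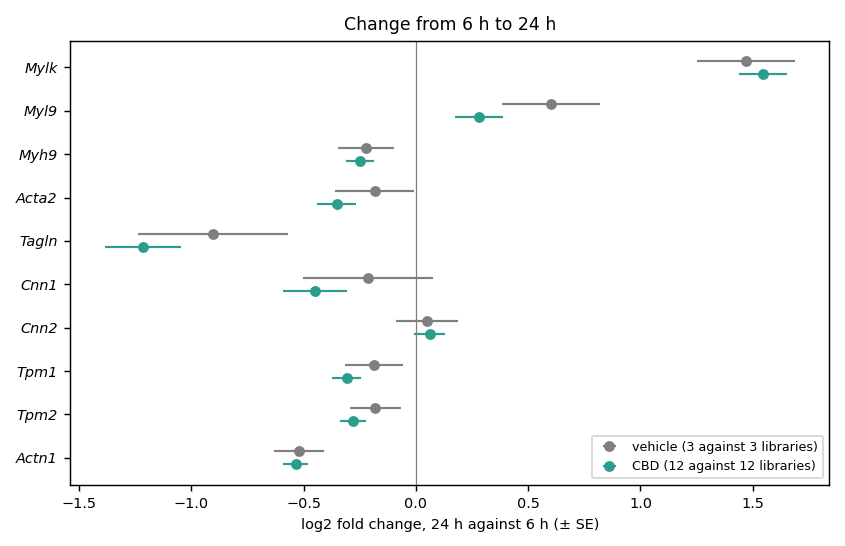
Log2 fold change from 6 h to 24 h for the 10 genes, in vehicle (grey, 3 against 3 libraries) and in CBD-treated cells (green, 12 against 12 libraries, mean of the doses). Points are estimates of edgeR and lines are ± 1 SE. *Mylk* (1.47 and 1.55) and *Tagln* (−0.90 and −1.22) lie at opposite ends in both.

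Replicate libraries of 1 group also differed together in some of the genes. Deviations of log2 CPM from the group mean were correlated over the 30 libraries for each of the 45 pairs of genes, which uses none of the differences between groups. After Benjamini-Hochberg adjustment over the 45 pairs, 6 pairs had an adjusted p below 0.1 for Pearson's r, 8 for Spearman's ρ and 5 for both, and all 6 were positive (permutation tests within groups, two-sided, 100000 permutations). Pairs drawn from all genes were not computed, so that these counts have no background beside them.
The pair of kinase and substrate, *Mylk* and *Myl9*, had a Pearson's r of 0.85 (adjusted permutation p = 0.0167) and a Spearman's ρ of 0.85 (adjusted permutation p = 0.0103). Without the 2 libraries farthest from the median of *Mylk*, r was 0.80. The deviations of *Mylk* ran from −0.81 to 0.65 at 6 h and from −0.12 to 0.19 at 24 h. This r therefore rests mostly on the libraries of 6 h. *Acta2* and *Cnn1* had r = 0.82 and ρ = 0.70 (adjusted permutation p = 0.0167 and 0.0197), with r = 0.72 without the 2 farthest libraries. *Myl9* and *Cnn1* had r = 0.76 and ρ = 0.73 (adjusted permutation p = 0.0167 and 0.0197), with r = 0.70 without the 2 farthest libraries.
The other pairs were *Acta2* with *Actn1* (r = 0.51, ρ = 0.58, adjusted permutation p = 0.0177 and 0.0197), *Myh9* with *Tpm2* (r = 0.65, ρ = 0.57, adjusted permutation p = 0.0764 and 0.0958) and *Myl9* with *Acta2* (r = 0.69, ρ = 0.51, adjusted permutation p = 0.0764 and 0.145). Without the 2 farthest libraries, r of these 3 pairs was 0.58, 0.51 and 0.61. Of the 9 pairs with *Mylk*, 1 passed for r, and that with *Cnn1* passed for ρ alone (0.56, adjusted permutation p = 0.0958). With *Tagln* its r was 0.22 and with *Actn1* it was −0.24 (adjusted permutation p = 0.652 and 0.422).
In 2 libraries already named several genes were low together. Vehicle replicate 3 of 6 h lay below its group mean by 0.81 in *Mylk*, 0.66 in *Myl9*, 0.77 in *Tagln*, 0.52 in *Cnn1* and 0.41 in *Acta2*, on the log2 scale, and above it by 0.07 in *Tpm1* and 0.01 in *Actn1*. Replicate 1 of 3 µM at 24 h lay below its mean by 0.78 in both *Tagln* and *Cnn1*, 0.71 in *Acta2* and 0.47 in *Myl9*, but by 0.11 in *Mylk*. When single libraries were left out, between 4 and 9 pairs passed. Over all genes, these 2 libraries also differed from their replicates, by the mean chi-square per gene between 2 libraries of a group. It was 10.7 and 9.69 between vehicle replicate 3 of 6 h and the others, against 2.15 between those. For replicate 1 of 3 µM at 24 h it was 9.31 and 6.52, against 4.17. Over the 30 replicate pairs it ranged from 2.13 to 10.7. What these 2 libraries share besides this was not tested.

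**Figure D4:**
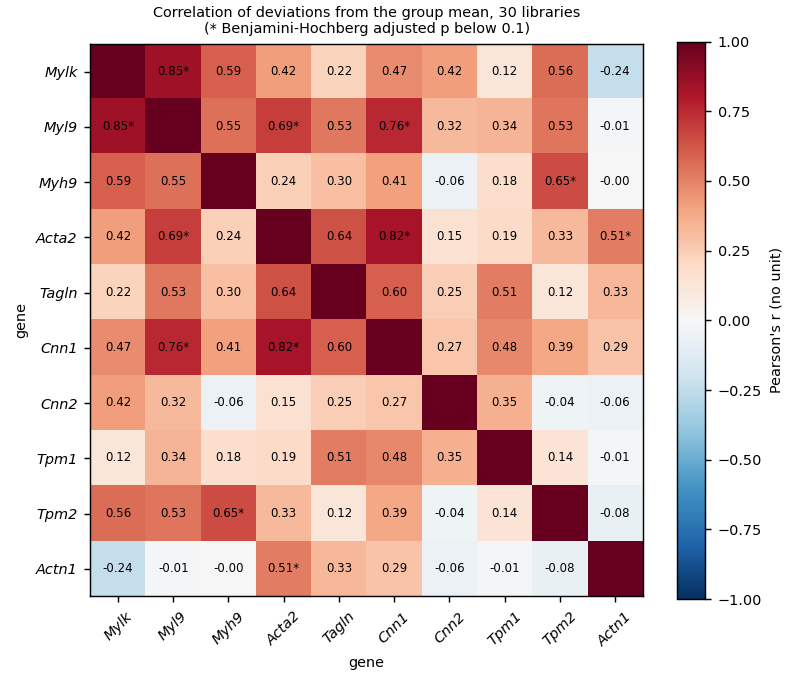
Pearson's r of the deviations from the group mean in log2 CPM, for the 45 pairs of the 10 genes over 30 libraries (colour scale without unit, from −1 to 1, each pair drawn on both sides of the diagonal). Asterisks mark the 6 pairs with an adjusted permutation p below 0.1. *Mylk* and *Myl9* (0.85) form the strongest pair, and the pairs of *Actn1* other than that with *Acta2* (0.51) lie between −0.24 and 0.33.

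The genes whose level over the 30 libraries was most like that of *Mylk* were not contractile genes. By Pearson's r of log2 CPM, the 5 nearest of the 12790 genes tested were *Nkd2*, an inhibitor of Wnt signalling (r = 0.97), the ephrin receptor gene *Ephb3* (0.96), the microtubule affinity kinase gene *Mark1* (0.96), the G protein gene *Gnai2* (0.95) and the amyloid precursor-like gene *Aplp2* (0.95). These correlations are descriptions without a test, and all of the 30 points share the step between 6 h and 24 h. Within the 15 libraries of 6 h, r was 0.83, 0.89, 0.74, 0.86 and 0.83 for these genes, and within the 15 of 24 h it was 0.89, 0.78, 0.75, 0.50 and 0.56. *Nkd2* was at a mean of 70.5 CPM in vehicle and 92.8 CPM in CBD-treated cells at 6 h, and at 150 and 206 CPM at 24 h.
Of the contractile genes, *Myl9* was nearest to *Mylk* (r = 0.76, rank 748), followed by *Cnn2* (r = 0.28, rank 4072). *Actn1* (r = −0.91, rank 12766) was near the end of the list. Within each time the order differed: r of *Myl9* with *Mylk* was 0.94 in the 6 h libraries and 0.56 in those of 24 h, that of *Myh9* was 0.86 and 0.13, and that of *Actn1* was −0.44 at both.

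The wider apparatus was described with 5 lists of 64 genes, of which 63 were matched to 1 identifier. The myosin chain gene *Myl12b* was left out because its symbol had 2 identifiers. They cover other myosin II chains, light chain phosphorylation, actins and the thin filament, stress fibre and Z-disc linkers, and SRF with its coactivators. For the doses together against vehicle, 0 of 54 genes tested passed at 24 h and 0 of 53 at 6 h in edgeR and in DESeq2, with 4 and 7 unadjusted p below 0.05. Of all genes, 0.107% and 0.749% passed, and 6.73% and 10.3% had an unadjusted p below 0.05. The median log2 fold change of the lists together was 0.004 at 24 h and 0.06 at 6 h, against −0.006 and −0.02 over all genes. In the list of light chain phosphorylation, the small GTPase gene *Rhoc* was at a mean of 525 CPM in vehicle and 495 CPM in CBD-treated cells at 24 h. The other kinase genes of the family were barely read, with 130 reads for *Mylk2*, 11 for *Mylk3* and 3 for *Mylk4* over all libraries, so that *Mylk* held nearly all reads of the family.
Of the other lists, *Myl6* (719 CPM in vehicle and 849 CPM in CBD-treated cells at 24 h), the essential light chain, and *Myl12a*, a further regulatory light chain (398 and 380 CPM), were the most abundant of the matched myosin chains. *Actb* (20995 and 20494 CPM) and *Cald1* (2211 and 2315 CPM) led the actins and thin filament, *Flna* (1104 and 1143 CPM) and *Zyx* (642 and 659 CPM) led the linkers, and *Mrtfb* (70.8 and 71.1 CPM) and *Mrtfa* (48.2 and 59.4 CPM) the SRF list. *Srf* itself had 126 reads over all libraries. *Actg1*, which shares sequence with pseudogenes, had 274 reads, and its level is uncertain.

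Among the doses of 24 h some genes of the wider lists differed. Against the 3 lower doses, 12 of the 54 genes were called at 3 µM, 7 higher and 5 lower, where 10.5% of all genes were called (6.36% higher and 4.16% lower). *Smtn*, which encodes the smooth muscle protein smoothelin, was higher by 0.87 ± 0.14 (edgeR FDR = 0.00119), and the GTPase genes *Rhoc* and *Rhoa* were higher by 0.51 ± 0.10 (edgeR FDR = 0.00702) and 0.32 ± 0.10 (edgeR FDR = 0.0485). The calmodulin gene *Calm3* (0.36 ± 0.10), the GTPase exchange factor gene *Arhgef1* (0.61 ± 0.16) and the kinase genes *Cdc42bpa* (0.47 ± 0.16) and *Cdc42bpb* (0.68 ± 0.21) made up the rest of those higher at 3 µM. The 2 kinase genes fell outside the naming rule and were added after their values were seen. Those lower at 3 µM were *Myl6* (−0.57 ± 0.13, edgeR FDR = 0.0113), the tropomyosin gene *Tpm4* (−0.48 ± 0.12, edgeR FDR = 0.0161) and the linker genes *Fhl1* (−0.46 ± 0.14), *Fhl2* (−0.38 ± 0.11) and *Zyx* (−0.33 ± 0.10). Of the 10 members 0 passed in this contrast, with *Mylk* at −0.12 ± 0.09 (edgeR FDR = 0.444). An unadjusted p below 0.05 was found in *Myh9* and in 21.6% of all genes. The share of reads outside genes moved with this contrast, being 21.4% at 3 µM and 19.4% to 19.7% at the lower doses, and with a covariate for it 30 genes were called in place of 1275. Its part in these differences was not tested further.
Over time in vehicle, 20 of the 54 were called, 12 higher and 8 lower at 24 h, and in CBD-treated cells 36, with 16 higher and 20 lower, where 26.7% (12.5% higher and 14.2% lower) and 53.6% (26% and 27.6%) of all genes were called. The coactivator gene *Mrtfa* was higher at 24 h by 0.90 ± 0.21 in vehicle (edgeR FDR = 0.00202) and 0.79 ± 0.10 in CBD-treated cells (edgeR FDR = 4.76e-08), and *Fhl2* by 0.78 ± 0.20 and 1.08 ± 0.10. *Myh10*, the heavy chain of non-muscle myosin IIB, was higher by 0.52 ± 0.16 in vehicle (edgeR FDR = 0.0167), with a value of 0.08 ± 0.08 in CBD-treated cells (edgeR FDR = 0.408). These 2 values of *Myh10* do not show that the change over time differed with CBD. Such a difference was called for 0 of the 5 tested myosin chains of the lists (smallest edgeR FDR = 0.619), where 0.235% of all genes were called. *Myl12a* changed by −0.75 ± 0.21 in vehicle (edgeR FDR = 0.0086) and −0.68 ± 0.10 in CBD-treated cells (edgeR FDR = 1.67e-06), the opposite direction to *Myl9*, also a regulatory light chain.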

How the data were processed

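The 30 libraries were grouped by their labels (vehicle or 1 of 4 CBD doses, 6 h or 24 h, 3 libraries each). The deposited counts are raw reads per Ensembl gene, made by the authors with Flexbar, STAR 2.7.5c (GRCm39) and HTSeq 1.99.2, and not normalized. Summary lines at the end of each file (reads outside genes, 20.0% of uniquely mapped reads, and ambiguous reads, 4.92%) were left out of library sizes and tests. The genes, lists and tests were chosen with earlier results of these data known. Each time was fitted with 15 libraries and a mean per group, and contrasts between times with all 30, in edgeR 4.0.16 (R 4.3.3): filterByExpr, TMM, quasi-likelihood F-test, p-values adjusted by Benjamini-Hochberg over the 12012, 12118 and 12790 genes tested, threshold 0.1. DESeq2 1.42.0 was an alternative, as were RLE normalization, other count filters, a covariate for reads outside genes, the compared groups alone, and each library left out. Correlations used log2 CPM with a prior count of 2. Listed genes were named if called among doses or over time (at most 4 per list and contrast by p) or if among the 2 most abundant of a list. A listed gene that met this rule is not reported here. Names and positions came from GENCODE M21 and RefSeq on GRCm38. Floors cover counting error only. The steps were tested on simulated counts with 200 changed genes.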

Additional observations from a re-analysis of the deposited data

How the results depend on the processing

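No paired analysis was possible because no replicate number in the labels links samples of different groups. No log2 fold change of a called member changed sign under any alternative, while the number of genes called moved in 10 cases besides single omissions, and the causes were not tested. In the contrasts that carry no test for *Mylk*, the other 9 genes were counted. With DESeq2 it rose from 0 to 1 for 3 µM at 6 h (*Acta2*). With no filter on low counts it rose from 0 to 2 for 0.325 µM, 3 for 1.5 µM, 1 for 3 µM and 3 for the doses together at 6 h (drawn from *Mylk*, *Myl9* and *Acta2*). With a covariate for reads outside genes it was 2, 2, 1 and 3 in the same contrasts of 6 h, and fell from 1 to 0 for any difference among doses at 24 h. Leaving out single libraries gave 0 to 1 genes for any difference among doses and for 3 µM against the lower doses at 24 h, 2 to 3 for time in vehicle, and 4 to 9 correlated pairs. For the doses together at 24 h it gave 0 of the 9 in all 15 omissions. Over all genes, the doses together gave 90 calls at 6 h (132 with DESeq2, 263 unfiltered, 329 with the covariate) and 13 at 24 h (29, 46 and 0), and any difference among doses at 24 h gave 234 (526, 783 and 1). With as few as 27 and 32 reads in a library, *Cnn1* and *Tagln* carried the widest intervals.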
